A study of Mus musculus with 12 samples.

Results

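The genes described here are the enzymes and transporters of glycolysis and lactate handling together with the oxygen-sensing HIF pathway and its targets. They form a list of 40 genes, given by name, and 39 of them were rows of the table of 17362 genes. Eno2 was not analysed here. All 39 passed the filter on low values that left 17086 genes for testing.

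Glycolysis splits glucose into pyruvate in the cytosol, and endothelial cells draw much of their energy from it even where oxygen is present. HIF alpha proteins are hydroxylated by the Egln oxygen sensors and degraded through Vhl when oxygen is plentiful. When oxygen is low they persist, pair with Arnt and raise glycolytic genes, glucose and lactate transporters and genes such as Adm and the collagen prolyl hydroxylases P4ha1 and P4ha2. Bone marrow holds regions of low oxygen, and its vessels differ in how much oxygenated blood they carry.

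RNA was sequenced from 4 populations sorted out of crushed tibia, femur and iliac bone of untreated B6 mice, with 3 libraries per population. CD200-high capillaries carried the gate CD200Hi, Sca1+, CD31+, EMCN-, CD45-. Type H vessels carried EMCN+, Sca1+, CD31+, CD45-, arterial cells CD200-, Sca1+, CD31+, CD45-, and the population labelled sinusoidal CD31+, Sca1+, CD45-. The last gate, as written, takes in the other gates, and 6 mice gave the triplicates of every population. How animals were pooled and how many cells were sorted are not given in the sources used here.

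Libraries held 7.33 to 21.6 M listed reads (M, 1e6 reads), and the median member had 312 to 1158 reads in a library. The sorting antigens went against the labels in places. Ly6a, which encodes Sca1, averaged 10.19 ± 0.35 log2 CPM in CD200-high libraries, 8.92 ± 0.39 in type H and 9.78 ± 0.13 in arterial libraries, against 4.05 ± 0.71 in those labelled sinusoidal (SD, n = 3 each). CPM are counts per 1e6 reads of the authors' effective library size. Emcn, the gene of the antigen that was to be absent from CD200-high cells, averaged 8.26 ± 0.42 log2 CPM in CD200-high libraries, 9.02 ± 0.03 in type H, 6.56 ± 0.45 in arterial libraries and 2.08 ± 0.81 in those labelled sinusoidal. The Cd200 transcript had its highest mean, 9.81 ± 0.02 log2 CPM, in the cells gated on it. It averaged 7.8 ± 0.32 in type H, 7.68 ± 0.11 in the arterial libraries gated as CD200- and 5.43 ± 0.08 in those labelled sinusoidal. Ptprc, which encodes CD45, averaged 5.38 ± 0.65, 3.98 ± 0.57, 7.41 ± 0.23 and 6.55 ± 0.31 log2 CPM in CD200-high, type H, arterial and labelled sinusoidal libraries. The 16 pan-endothelial marker genes summed to 0.284 to 0.567% of reads in CD200-high, 0.916 to 0.977% in type H, 0.176 to 0.232% in arterial libraries and 0.0449 to 0.0473% in those labelled sinusoidal, where Sox17 was at 0. The 10 sinusoidal markers reached only 0.0123 to 0.0151% in the libraries labelled sinusoidal, against 0.957 to 1.21% in type H. Comparisons with the libraries labelled sinusoidal are therefore comparisons with libraries that held little endothelial RNA. In bulk samples such as these, fewer cells of a type and less RNA per cell cannot be told apart.

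Scaling every library to an equal pan-endothelial median, in place of the deposited scaling, moved the median difference of all genes by -1.09 for CD200-high against arterial, 1.09 for CD200-high against type H and -2.18 for type H against arterial on the log2 scale. Against the libraries labelled sinusoidal it moved that median by -4.71 for CD200-high, -5.79 for type H and -3.61 for arterial. It is called the endothelial scaling below, and each direction that it turned, or call that it ended, is named beside the gene concerned. Turned means that the sign of the difference changed, whether or not the new difference was called. Under this scaling the median of all genes was -1.32, 1.04 and -2.38 in the same order, and -4.93, -6 and -3.63 against the libraries labelled sinusoidal. Counts of members called under it are therefore not results about the members, and no share of all genes is given beside them.

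Promoters of 35 of the 39 genes were found in RefSeq (build GRCm38.p6), as windows of 300 bases that run from 250 before to 50 after the annotated start. They were searched for ACGTG and GCGTG, the cores of the element that HIF binds, on both strands and with overlaps counted separately. Of the first listed promoters of these 35 genes, 57.1% held ACGTG, 60% held GCGTG and 82.9% held either. Of all 32841 promoters in the table, 19.6% held ACGTG, 32.4% held GCGTG and 43.8% held either. The members' windows also held more CG dinucleotides, with a median of 21 against 7, and both cores contain CG. A match is a description of these letters and is not a bound site.

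The windows below belong to members whose levels set 1 population apart (P4ha1, P4ha2, Slc2a1, Hif1a and Gapdh) and to the promoter with the most matches (Ldha, 7). Capitals mark ACGTG or GCGTG, or their reverse complements CACGT and CACGC where the core lies on the other strand. All are written 5′ to 3′ on the gene's strand. P4ha1 lies at chr10:59323046-59323345 (plus strand), P4ha2 at chr11:54100674-54100973 (plus), Slc2a1 at chr4:119108495-119108794 (plus), Hif1a at chr12:73907617-73907916 (plus), Gapdh at chr6:125165724-125166023 (minus) and Ldha at chr7:46845554-46845853 (plus).
P4ha1: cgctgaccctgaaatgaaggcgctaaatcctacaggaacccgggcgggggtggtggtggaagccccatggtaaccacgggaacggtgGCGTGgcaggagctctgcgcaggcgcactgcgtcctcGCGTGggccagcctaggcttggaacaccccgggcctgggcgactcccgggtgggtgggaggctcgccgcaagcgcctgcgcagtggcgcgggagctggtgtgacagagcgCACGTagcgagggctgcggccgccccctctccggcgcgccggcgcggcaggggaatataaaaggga
P4ha2: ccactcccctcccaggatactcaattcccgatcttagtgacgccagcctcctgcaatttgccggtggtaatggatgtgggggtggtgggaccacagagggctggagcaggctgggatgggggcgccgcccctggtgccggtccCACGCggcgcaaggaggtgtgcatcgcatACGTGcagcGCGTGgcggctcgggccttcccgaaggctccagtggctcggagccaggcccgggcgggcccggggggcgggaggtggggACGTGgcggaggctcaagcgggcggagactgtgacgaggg
Slc2a1: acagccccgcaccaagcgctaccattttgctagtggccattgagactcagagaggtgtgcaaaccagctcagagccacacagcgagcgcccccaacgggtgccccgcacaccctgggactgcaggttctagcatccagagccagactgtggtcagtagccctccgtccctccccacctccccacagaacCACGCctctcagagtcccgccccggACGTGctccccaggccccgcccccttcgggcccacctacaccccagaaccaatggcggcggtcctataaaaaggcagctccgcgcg
Hif1a: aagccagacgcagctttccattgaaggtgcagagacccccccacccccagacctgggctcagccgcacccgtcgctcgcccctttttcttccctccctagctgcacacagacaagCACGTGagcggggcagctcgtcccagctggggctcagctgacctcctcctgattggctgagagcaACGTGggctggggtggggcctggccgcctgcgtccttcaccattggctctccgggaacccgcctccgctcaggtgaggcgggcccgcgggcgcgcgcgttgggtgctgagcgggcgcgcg
Gapdh: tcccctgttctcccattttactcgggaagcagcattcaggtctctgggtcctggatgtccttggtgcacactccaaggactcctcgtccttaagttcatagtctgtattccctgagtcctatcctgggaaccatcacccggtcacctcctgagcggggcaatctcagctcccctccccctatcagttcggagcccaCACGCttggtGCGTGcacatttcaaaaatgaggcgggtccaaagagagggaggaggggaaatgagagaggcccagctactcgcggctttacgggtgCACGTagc
Ldha: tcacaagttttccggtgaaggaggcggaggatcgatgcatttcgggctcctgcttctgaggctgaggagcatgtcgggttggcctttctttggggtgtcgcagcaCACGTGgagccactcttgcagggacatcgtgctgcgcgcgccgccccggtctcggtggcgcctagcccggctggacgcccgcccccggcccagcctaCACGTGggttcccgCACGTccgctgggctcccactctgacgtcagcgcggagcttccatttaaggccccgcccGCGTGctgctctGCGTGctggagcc

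P4ha1 held 3 matches and P4ha2 4. Slc2a1 held 2 matches, Hif1a 3 and Gapdh 3. Slc2a3, Epas1, Bnip3l and Ndrg1 have no window shown.

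Of the 39 members, 24 were called in at least 1 of the 6 comparisons between populations. The share of all genes called in at least 1 was not computed, so this count is not a result about the members. CD200-high libraries were low in Gapdh and Slc16a1 and high in P4ha1 against every other population. Type H libraries were high in Slc2a1, Hif1a and Ndrg1 and almost without P4ha2, while arterial libraries were high in Pgam1. The libraries labelled sinusoidal were low in Epas1 and Adm. These are directions on the deposited scaling, and the endothelial scaling turned many of them. Each statement rests on the limma calls and the values that follow, with an adjusted p under 0.05 as the threshold, and p-values measure the spread between these libraries.

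In CD200-high against arterial libraries, the comparison of CD200-selected capillary cells with CD200- cells, 10 of 39 members were called, or 25.6%, against a background of 12.9% of all genes tested. Of these, 1 was higher (P4ha1) and 9 were lower (Gapdh, Eno1, Slc16a3, Pgk1, Gpi1, Slc16a1, Pgam1, Tpi1 and Hk2), where 4.75% of all genes were higher and 8.15% lower. The median member differed by -0.48 on the log2 scale and the median of all genes by -0.22. Without the libraries labelled sinusoidal in the fit, 1 member was higher and 5 were lower. Without arterial replicate 1, and again without arterial replicate 3, 1 was higher and 4 were lower. The endothelial scaling gave 0 higher and 20 lower, with the median of all genes at -1.32.

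In CD200-high against type H libraries, which compares cells gated without and with endomucin, 10 members were called, or 25.6%, against 13% of all genes. P4ha1 and P4ha2 were higher and 8 were lower (Gapdh, Slc16a1, Pfkl, Slc2a1, Pkm, Hif1a, Ndrg1 and Pfkp), where 6.66% of all genes were higher and 6.35% lower. Under the endothelial scaling 7 members were higher and 1 was lower, with the median of all genes at 1.04, so this split depended on the scaling. The median member differed by -0.25 and the median of all genes by -0.05.

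In CD200-high against the libraries labelled sinusoidal, 15 members were called, or 38.5%, against 28.7% of all genes. Higher were Epas1, P4ha1, Ndrg1, Adm, P4ha2 and Ldhb, and lower were Gapdh, Slc16a1, Pgk1, Ldha, Eno1, Pfkl, Hk1, Tpi1 and Pfkfb3, where 14.1% of all genes were higher and 14.6% lower. The endothelial scaling left 0 higher and 35 lower, with the median of all genes at -4.93.

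In type H against arterial libraries, 14 members were called, or 35.9%, against 20.7% of all genes. Higher were Ndrg1, Slc2a1, Pfkl, Hif1a, Epas1, Pfkp and Slc16a1, and lower were P4ha2, Eno1, Tpi1, Slc16a3, Slc2a3, Ldha and Pgam1, where 7.96% of all genes were higher and 12.7% lower. The same 7 and 7 counts came from a fit without the libraries labelled sinusoidal. The endothelial scaling gave 0 higher and 29 lower, with the median of all genes at -2.38.

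In type H against the libraries labelled sinusoidal, 14 members were called, or 35.9%, against 28.6% of all genes. Higher were Epas1, Ndrg1, Hif1a, Slc2a1, Adm, Pkm and Pfkp, and lower were P4ha2, Ldha, Tpi1, Slc2a3, Pfkfb3, Hk1 and Eno1, where 13.9% of all genes were higher and 14.6% lower. In arterial libraries against those labelled sinusoidal, 5 members were called, or 12.8%, against 10.2% of all genes. Epas1, Adm, Ldhb and Pgam1 were higher and Slc16a1 was lower, where 8.09% of all genes were higher and 2.14% lower. That count was 2 or 3 when any 1 arterial library or any 1 library labelled sinusoidal was left out. The endothelial scaling gave 0 higher and 37 lower for type H, and 1 higher and 30 lower for arterial libraries. The median of all genes was then -6 and -3.63, so these counts follow the shift of the whole table.

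Counts of members whose libraries did not overlap between populations are read against the same share of all genes. In CD200-high against arterial libraries 17 of 39 members did not overlap, or 43.6%, beside 32.2% of all genes, and against type H 13, or 33.3%, beside 30.9%. Against the libraries labelled sinusoidal 21 did not overlap in CD200-high, or 53.8%, beside 46.5%, and 20 in type H, or 51.3%, beside 46.8%. In type H against arterial libraries 21 did not overlap, or 53.8%, beside 40%, and in arterial libraries against those labelled sinusoidal 14, or 35.9%, beside 39.5%. These shares stood near the background except in CD200-high and type H against arterial, where they were above it.

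**Figure D1:**
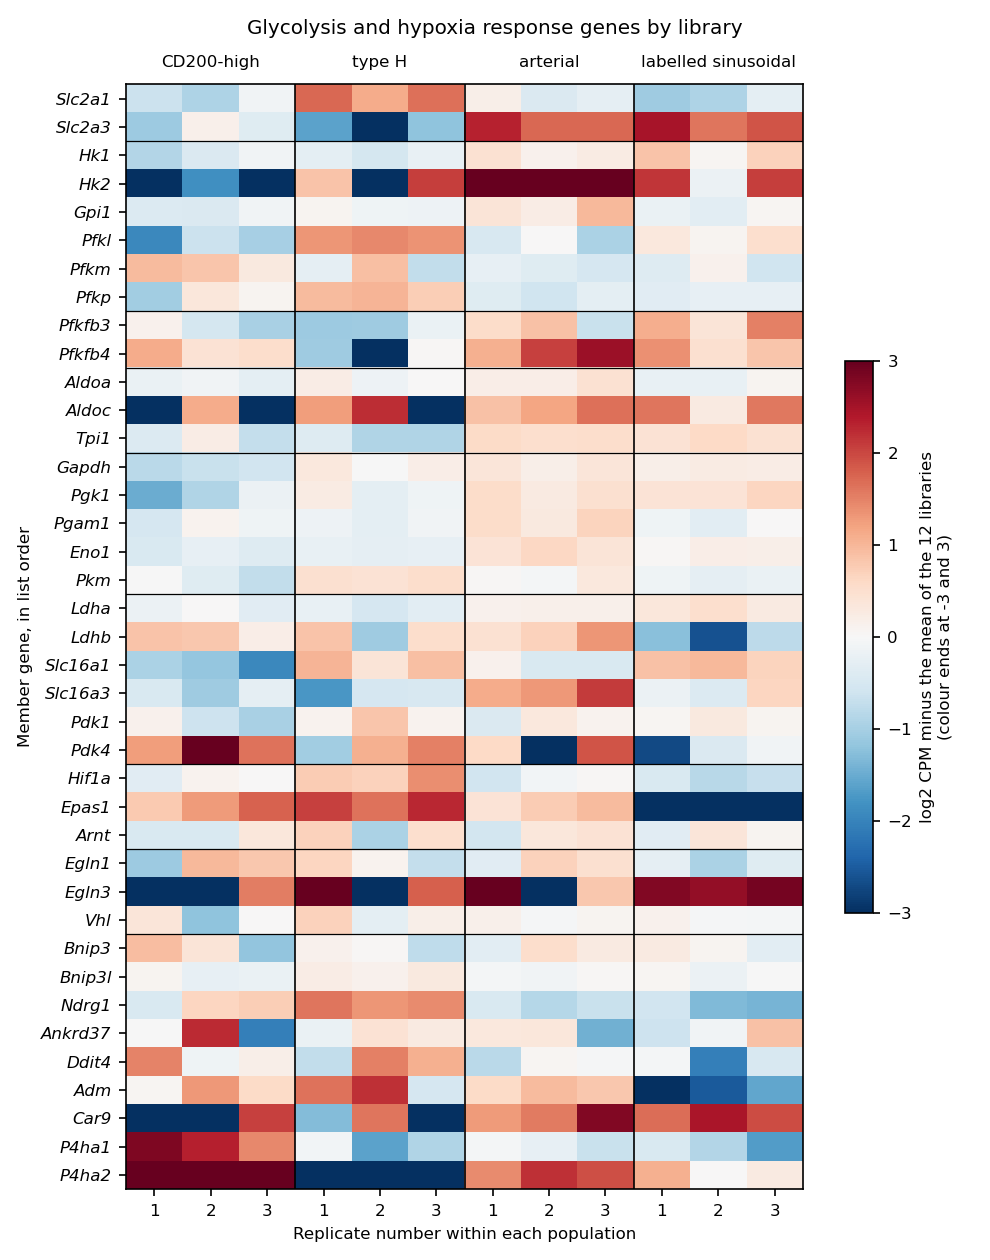
Deviation of each member, in list order, from its mean over the 12 libraries (colour, log2 CPM, ending at -3 and 3), with 1 column per library. P4ha1 and P4ha2 are above their means in each CD200-high library, P4ha2 is below it in each type H library, and Epas1 is below it in each library labelled sinusoidal, all on the deposited scaling.

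**Figure D2:**
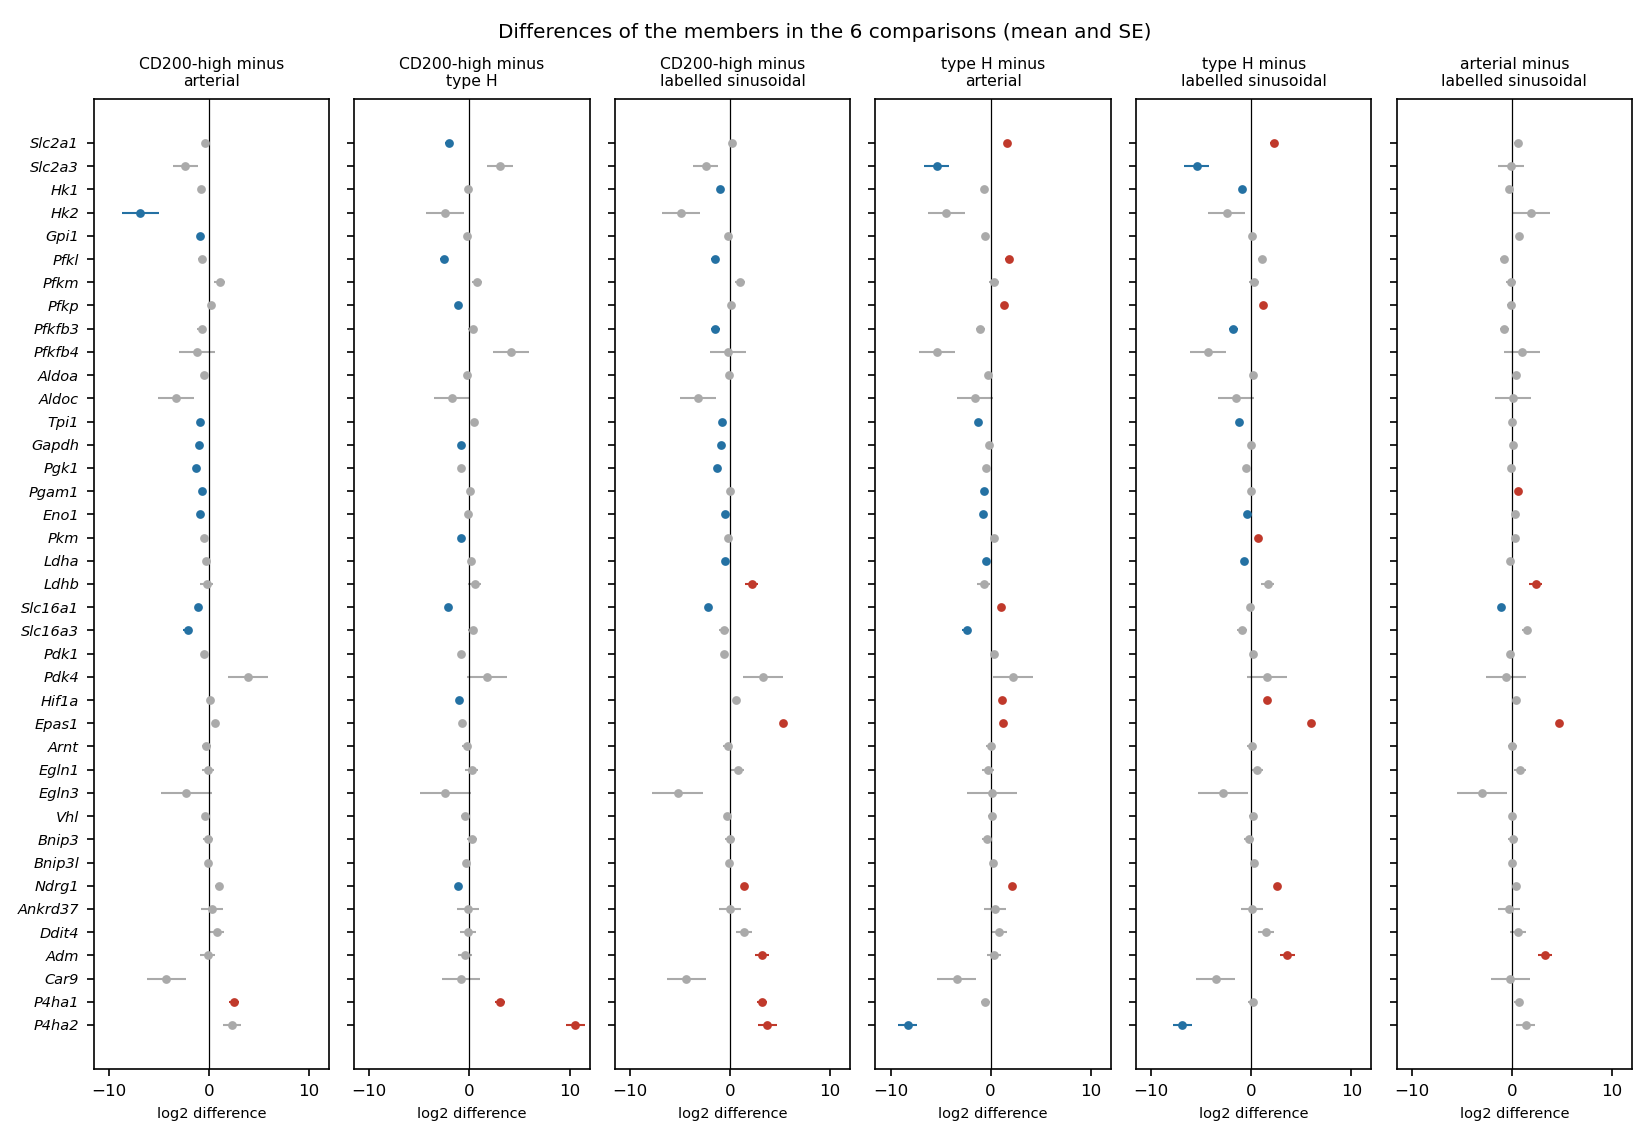
Difference between 2 populations for each member in the 6 comparisons (log2, first named minus second; point and SE), red for higher and blue for lower at an adjusted p under 0.05, grey for not called. P4ha2 has the largest called difference among members against type H, at 10.59 log2, and the red points against the libraries labelled sinusoidal turn or lose their call under the endothelial scaling except Epas1 in arterial libraries.

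The glucose transporter genes among the members differed in their pattern between populations. Slc2a1, the widely expressed glucose transporter, had 17.6, 14.4 and 25.5 CPM in CD200-high, 91.2, 58.9 and 85.4 in type H, 31.1, 20.3 and 22.6 in arterial libraries, and 13.1, 14.4 and 22.3 in those labelled sinusoidal. Every type H library lay above the other 9. Levels in CD200-high were below those in type H by 4.13-fold (log2 difference -2.05 ± 0.35, adjusted p = 0.00239). Type H was 3.18-fold above arterial (1.67 ± 0.35, adjusted p = 0.00577) and 4.77-fold above the libraries labelled sinusoidal (2.26 ± 0.35, adjusted p = 0.000487). The endothelial scaling turned both rises of type H, to -0.51 (adjusted p = 0.304) and -3.54 (3.39e-06), and ended the call of CD200-high against type H (-0.96, adjusted p = 0.133).

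Slc2a3, a high-affinity glucose transporter, ran the other way. It had 27.9, 66.5 and 46.1 CPM in CD200-high, 19.6, 0.278 and 26 in type H, 293, 197 and 195 in arterial libraries, and 334, 181 and 219 in those labelled sinusoidal. The arterial libraries and those labelled sinusoidal overlapped, and all 6 lay above the CD200-high and type H libraries. Type H was lower than arterial (-5.38 ± 1.26 on the log2 scale, adjusted p = 0.0107), a size that type H replicate 2 sets in part, since the difference was -3.31 without it (adjusted p = 0.000296) and -6.31 and -6.52 without type H replicates 1 and 3. Against the libraries labelled sinusoidal the difference was -5.46 ± 1.26 (adjusted p = 0.00669), and -3.39 without type H replicate 2, -6.39 without replicate 1 and -6.60 without replicate 3. The difference of CD200-high from arterial was -2.35 ± 1.26 (adjusted p = 0.258) and did not pass, nor did that from the libraries labelled sinusoidal (-2.42, adjusted p = 0.176). The SE comes from all 4 populations, type H replicate 2 among them. Both differences were called without type H replicate 2, with voom weights and with only the 2 populations compared.

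Per kilobase of exon, Slc2a1 made up 20.9 to 43.3% of the summed reads of both transporters in CD200-high, 80 to 99.6% in type H, 11.1 to 12.3% in arterial libraries and 4.54 to 11% in those labelled sinusoidal. These shares within a library do not depend on its scaling. They leave out other genes of the family, such as Slc2a10. It averaged 6.78, 3.51, 4.8 and 1.78 log2 CPM in CD200-high, type H, arterial and labelled sinusoidal libraries. The arterial libraries held the largest sums of neutrophil, macrophage and erythroid markers. The 14 neutrophil markers reached 0.65 to 1.1% of reads in CD200-high, 0.471 to 0.819% in type H, 2.37 to 3.6% in arterial libraries and 0.715 to 1.25% in those labelled sinusoidal, with none at 0. The 10 macrophage markers reached 0.144 to 0.304%, 0.204 to 0.291%, 0.767 to 1.13% and 0.258 to 0.339% in the same order, and the 11 erythroid markers 0.211 to 0.358%, 0.316 to 0.657%, 1.08 to 2.23% and 0.351 to 0.669%, again with none at 0. Their part in this or any later difference of the arterial libraries was not tested.

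**Figure D3:**
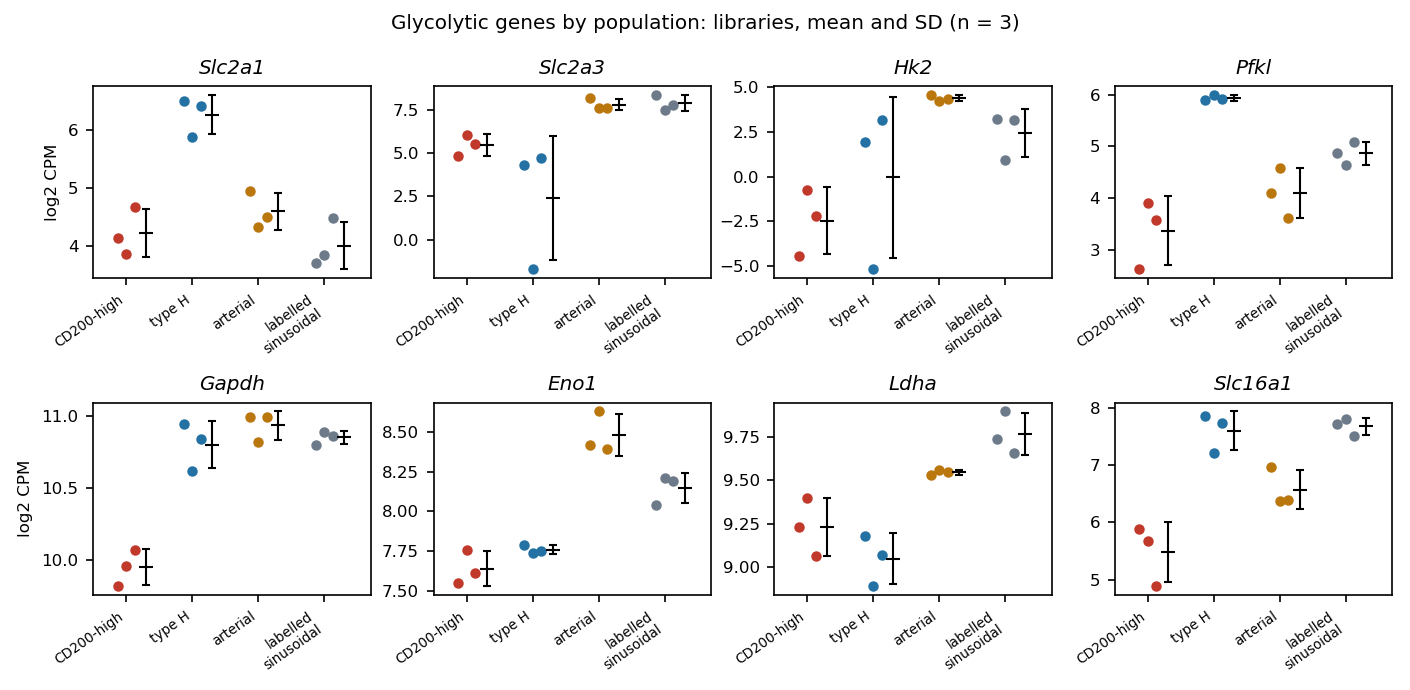
Deposited log2 CPM of 8 glycolytic members in each library (points), with the mean and SD of 3 libraries beside them, for CD200-high, type H, arterial and labelled sinusoidal libraries. Slc2a1 and Pfkl peak in type H, Gapdh and Slc16a1 are lowest in CD200-high, and Slc2a3 and Hk2 are spread widely where a library held few reads, all on the deposited scaling.

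The first committed steps of glycolysis moved in different directions from gene to gene. Hk2, the inducible hexokinase, had 0, 0.556 and 0.148 CPM in CD200-high, or 0, 8 and 1 reads, 3.75, 0 and 8.79 CPM in type H, 23.6, 18.6 and 20 in arterial libraries, and 9.25, 1.86 and 8.92 in those labelled sinusoidal. The arterial libraries lay above all others. CD200-high was called lower than arterial (log2 difference -6.83 ± 1.87, adjusted p = 0.0337), with a size that depends on the 0.5 read added before the log. The difference was -5.84 (adjusted p = 0.0996) without CD200-high replicate 1 and -7.68 without replicate 2, and the call was lost without CD200-high replicate 3 or any arterial library (adjusted p up to 0.0955). Hk1, the constitutive hexokinase, averaged 38.9 ± 10 CPM in CD200-high libraries, 41.7 ± 4.62 in type H, 64.5 ± 7.83 in arterial libraries and 78.7 ± 21 in those labelled sinusoidal. It was called lower against the libraries labelled sinusoidal in CD200-high (-1.01 ± 0.27, adjusted p = 0.0174) and in type H (-0.88 ± 0.27, adjusted p = 0.0308).

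Those Hk1 calls were lost without CD200-high replicate 1 or replicates 1 or 3 labelled sinusoidal for CD200-high (adjusted p 0.0568 to 0.0759). For type H they were lost without type H replicates 1 or 2 or the same 2 libraries labelled sinusoidal (0.0611 or more). Hk2 made up 0 to 1.2% of hexokinase reads per kilobase in CD200-high, 0 to 14.3% in type H, 21.7 to 21.8% in arterial libraries and 2.83 to 8.32% in those labelled sinusoidal. The arterial share varied by 0.1 percentage points between libraries and lay above all others.

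Pfkl, the liver-type phosphofructokinase, had 6.1, 15 and 11.8 CPM in CD200-high, 59.5, 64.2 and 60.2 in type H, 17, 23.9 and 12.2 in arterial libraries, and 29.3, 24.9 and 33.8 in those labelled sinusoidal. The type H libraries lay close together and above all others. CD200-high was 5.94-fold below type H (-2.57 ± 0.39, adjusted p = 0.00108) and 2.82-fold below the libraries labelled sinusoidal (-1.50 ± 0.39, adjusted p = 0.0137). The call against the libraries labelled sinusoidal was lost without replicate 3 labelled sinusoidal (adjusted p = 0.0533). Type H was 3.58-fold above arterial (1.84 ± 0.39, adjusted p = 0.00602), which turned to -0.34 under the endothelial scaling (adjusted p = 0.524). The difference of type H from the libraries labelled sinusoidal, 1.07, did not pass (adjusted p = 0.0586). It was called with an added 1 CPM, with voom weights and with only the 2 populations compared. The endothelial scaling turned it to -4.72 (adjusted p = 3.61e-07).

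Pfkp, the platelet-type enzyme, had 24, 62.6 and 52.5 CPM in CD200-high, 96.4, 100 and 82.7 in type H, 38.6, 33.2 and 40.7 in arterial libraries, and 39.3, 41.8 and 42.1 in those labelled sinusoidal. All type H libraries lay above the rest. Type H was higher than arterial by 1.31 ± 0.32 (adjusted p = 0.0126) and than the libraries labelled sinusoidal by 1.18 ± 0.32 (adjusted p = 0.0154), and the endothelial scaling turned these to -0.87 and -4.61. CD200-high was lower than type H (-1.11 ± 0.32, adjusted p = 0.0394). With the mouse number as a block the adjusted p was 0.0516, under the endothelial scaling it was 0.97, and it was 0.0516 to 0.1 when 1 library was left out, except CD200-high replicate 2 or 3. Pfkm, the muscle-type enzyme, averaged 17.8 ± 4 CPM in CD200-high libraries, 11.9 ± 7.31 in type H, 8.37 ± 0.781 in arterial libraries and 9.08 ± 2.49 in those labelled sinusoidal, and it was called in no comparison.

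As shares of the 3 phosphofructokinase genes per kilobase, Pfkl made up 11.5 to 16% in CD200-high, 36.4 to 43% in type H, 21.5 to 37.8% in arterial libraries and 32.8 to 42.8% in those labelled sinusoidal. Pfkfb3, which makes the activator of phosphofructokinase, averaged 21.1 ± 8.22 CPM in CD200-high libraries, 16.9 ± 6.41 in type H, 36.5 ± 17.1 in arterial libraries and 58.3 ± 21.4 in those labelled sinusoidal. It was called lower against the libraries labelled sinusoidal in CD200-high (-1.46 ± 0.48, adjusted p = 0.0414, but 0.063 with the mouse number as a block) and in type H (-1.78 ± 0.48, adjusted p = 0.0165). The CD200-high call was lost without CD200-high replicates 2 or 3, arterial replicate 1, or replicates 1 or 3 labelled sinusoidal (adjusted p 0.0534 to 0.148). The type H call was lost without type H replicate 1 or replicates 1 or 3 labelled sinusoidal (0.053 to 0.073). Pfkfb4, its relative, was listed at 0 CPM in type H replicate 2, at 8.83 and 19 CPM in type H replicates 1 and 3, and was called in no comparison. Its difference of type H from arterial was -5.37 (adjusted p = 0.0552). That difference was called without any 1 of the type H libraries, with an added 1 CPM, with quantile scaling and with voom weights.

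Among the remaining upper enzymes, Tpi1, triosephosphate isomerase, fell furthest in type H. It had 153, 237 and 124 CPM in CD200-high, 154, 108 and 107 in type H, 302, 287 and 295 in arterial libraries, and 272, 305 and 280 in those labelled sinusoidal. The CD200-high and type H libraries overlapped and all lay below the other 6. Type H was lower than arterial (-1.28 ± 0.22, adjusted p = 0.00189) and than the libraries labelled sinusoidal (-1.24 ± 0.22, adjusted p = 0.00139). CD200-high was likewise lower than arterial (-0.84 ± 0.22, adjusted p = 0.0295) and than the libraries labelled sinusoidal (-0.79 ± 0.22, adjusted p = 0.0204). Both CD200-high calls were lost without CD200-high replicates 1 or 3. The arterial one was also lost without any arterial library (adjusted p 0.0698 to 0.0851 over all such fits), and the other without replicates 2 or 3 labelled sinusoidal (0.0514 to 0.0697).

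Gpi1, which isomerises glucose phosphate, averaged 114 ± 15.1 CPM in CD200-high libraries, 135 ± 12 in type H, 209 ± 60.9 in arterial libraries and 127 ± 17.1 in those labelled sinusoidal. Levels in CD200-high were below those in arterial (-0.85 ± 0.21, adjusted p = 0.0206), a call lost without CD200-high replicates 1 or 2 or arterial replicate 3 (0.058 to 0.0735). With the mouse number as a block, Gpi1 was also lower in type H than in arterial (adjusted p = 0.0445, against 0.0625 unblocked) and higher in arterial than in libraries labelled sinusoidal (0.0426, against 0.0595). Aldoa, the main aldolase, averaged 206 ± 13.2, 243 ± 32.2, 288 ± 29 and 219 ± 28.2 CPM in CD200-high, type H, arterial and labelled sinusoidal libraries and was called nowhere. Aldoc, the brain-type aldolase, stayed at or under 3.33 CPM in every library.

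Of the lower glycolysis genes, Gapdh was called lower in CD200-high than in each other population. Gapdh, the most abundant member per kilobase in all 4 populations, had 901, 998 and 1080 CPM in CD200-high, 1970, 1570 and 1840 in type H, 2040, 1810 and 2040 in arterial libraries, and 1780, 1890 and 1850 in those labelled sinusoidal. The CD200-high libraries lay below all 9 others, which overlapped among themselves. CD200-high was 1.98-fold below arterial (-0.99 ± 0.11, adjusted p = 0.000326), 1.80-fold below type H (-0.85 ± 0.11, adjusted p = 0.000275) and 1.86-fold below the libraries labelled sinusoidal (-0.90 ± 0.11, adjusted p = 8.26e-05). These 3 calls held with any 1 library left out, and the endothelial scaling turned the difference from type H to 0.24 (adjusted p = 0.647, not called).

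Eno1, the main enolase, had 187, 217 and 196 CPM in CD200-high, 222, 214 and 215 in type H, 344, 397 and 336 in arterial libraries, and 263, 295 and 293 in those labelled sinusoidal. The arterial libraries lay above all others, and CD200-high overlapped with type H. CD200-high was lower than arterial (-0.84 ± 0.12, adjusted p = 0.00135) and than the libraries labelled sinusoidal (-0.50 ± 0.12, adjusted p = 0.00976). Type H was lower than arterial (-0.72 ± 0.12, adjusted p = 0.00163) and than the libraries labelled sinusoidal (-0.38 ± 0.12, adjusted p = 0.0345). The last call was lost without any type H library or replicates 2 or 3 labelled sinusoidal (0.0639 to 0.114).

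Pgam1, phosphoglycerate mutase, was highest in arterial libraries. It had 168, 260 and 219 CPM in CD200-high, 215, 195 and 224 in type H, 350, 295 and 383 in arterial libraries, and 221, 194 and 244 in those labelled sinusoidal. No arterial library overlapped with another population, and the other 3 populations overlapped. Levels in CD200-high were below those in arterial (-0.68 ± 0.18, adjusted p = 0.0266), as were those in type H (-0.69 ± 0.18, adjusted p = 0.0164), while arterial exceeded the libraries labelled sinusoidal by 0.64 ± 0.18 (adjusted p = 0.0404).

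The Pgam1 calls depended on single libraries. The CD200-high one was lost without CD200-high replicate 1 or arterial replicates 1 or 3 (adjusted p 0.0789 to 0.0973), and the type H one without type H replicate 2 or the same arterial libraries (0.0504 to 0.0657). The call of arterial against the libraries labelled sinusoidal was lost without type H replicates 1 or 3, arterial replicates 1 or 3, or any library labelled sinusoidal (0.0535 to 0.157), and turned to -2.97 under the endothelial scaling.

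Pgk1, phosphoglycerate kinase, averaged 42 ± 19.1 CPM in CD200-high libraries, 69.4 ± 13.3 in type H, 96.2 ± 8.89 in arterial libraries and 100 ± 9.48 in those labelled sinusoidal. CD200-high was lower than arterial (-1.29 ± 0.29, adjusted p = 0.0145, but 0.0547 without arterial replicate 1) and than the libraries labelled sinusoidal (-1.35 ± 0.29, adjusted p = 0.00537). Pkm, pyruvate kinase, averaged 399 ± 101 CPM in CD200-high libraries, 708 ± 22.5 in type H, 548 ± 76.6 in arterial libraries and 443 ± 20.2 in those labelled sinusoidal. Levels in CD200-high were below those in type H (-0.86 ± 0.17, adjusted p = 0.0056), and type H was higher than the libraries labelled sinusoidal by 0.68 ± 0.17 (adjusted p = 0.0101). The endothelial scaling turned these to 0.23 (adjusted p = 0.715, not called) and -5.11.

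Of the 5 lower glycolysis genes, 4 fell in CD200-high against arterial, 2 against type H and 3 against the libraries labelled sinusoidal, and 0 rose in these 3 comparisons on the deposited scaling. Among all genes 8.15%, 6.35% and 14.6% were lower in the same order. Under the endothelial scaling both calls against type H were lost, at 0.24 for Gapdh (adjusted p = 0.647) and 0.23 for Pkm (adjusted p = 0.715). The median gene of the 5 differed by -0.84, -0.81 and -0.50 in the same order, beside -0.22, -0.05 and -0.22 for all genes. All 39 members together took 0.412 to 0.473% of reads in CD200-high, 0.604 to 0.682% in type H, 0.665 to 0.695% in arterial libraries and 0.641 to 0.663% in those labelled sinusoidal. Gapdh alone supplied 18.7 to 22.3%, 26.8 to 27.8%, 28.5 to 30.8% and 30 to 32.6% of the members' reads in the same order. Gapdh, Pgk1, Eno1, Pgam1, Tpi1, Aldoa, Pkm and Ldha have near-identical copies elsewhere in the genome, and reads that match several places could be split among them.

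The other transcripts of the CD200-high libraries bear on any share of reads. The 16 stromal and bone markers, collagen I genes among them, took 12.2 to 16.6% of reads in CD200-high, 0.499 to 0.773% in type H, 2.18 to 2.83% in arterial libraries and 0.95 to 1.91% in those labelled sinusoidal, with none at 0. Their part in the low share of glycolytic reads was not tested. The deposited scaling sets the effective size of the CD200-high libraries, at 6.77 to 14.4 M, below their listed reads of 7.33 to 15.8 M. Type H replicates 1 and 3 and arterial replicate 3 were also set below their reads. Their sizes were 19.5, 15.5 and 9.4 M, for reads of 20.2, 16.2 and 9.55 M.

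Pyruvate and lactate genes separated the populations differently. Ldha, the subunit that favours lactate formation, had 599, 676 and 534 CPM in CD200-high, 580, 474 and 537 in type H, 738, 757 and 750 in arterial libraries, and 857, 952 and 810 in those labelled sinusoidal. CD200-high and type H overlapped, arterial lay above both, and the libraries labelled sinusoidal lay above arterial. Type H was lower than arterial (-0.50 ± 0.12, adjusted p = 0.0112) and than the libraries labelled sinusoidal (-0.72 ± 0.12, adjusted p = 0.000743). CD200-high was lower than the libraries labelled sinusoidal (-0.54 ± 0.12, adjusted p = 0.00563), and its difference of -0.32 ± 0.12 from arterial did not pass (adjusted p = 0.105).

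The libraries labelled sinusoidal also held the largest sums of B lineage and platelet markers. The 12 B and plasma cell markers reached 0.0282 to 0.0391% of reads in CD200-high, with Jchain at 0, 0.0198 to 0.0298% in type H, 0.178 to 0.394% in arterial libraries and 0.958 to 1.1% in those labelled sinusoidal. The 11 megakaryocyte and platelet markers reached 0.00497 to 0.0147%, 0.00479 to 0.00923%, 0.0659 to 0.221% and 0.407 to 0.552% in the same order, with none at 0. Cell cycle genes, 18 in number, reached 0.0284 to 0.0617%, 0.0345 to 0.0684%, 0.161 to 0.237% and 0.277 to 0.315%. The part of such cells in the Ldha difference was not tested.

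Ldhb, the subunit that favours pyruvate formation, averaged 16.4 ± 3.88 CPM in CD200-high libraries, 13.1 ± 7.26 in type H, 19.1 ± 6.13 in arterial libraries and 4.05 ± 2.19 in those labelled sinusoidal. It was called higher against the libraries labelled sinusoidal in CD200-high (2.17 ± 0.65, adjusted p = 0.0272) and in arterial (2.37 ± 0.65, adjusted p = 0.0391), which the endothelial scaling turned to -2.54 and -1.24. The CD200-high call was lost without CD200-high replicates 1 or 2 or replicates 1 or 2 labelled sinusoidal (adjusted p 0.0505 to 0.101). The arterial call was lost without any arterial library or the same 2 libraries labelled sinusoidal (0.0641 to 0.153).

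Slc16a1, the lactate carrier MCT1, had 58.8, 51.3 and 29.5 CPM in CD200-high, 230, 148 and 212 in type H, 125, 82.8 and 83.2 in arterial libraries, and 210, 224 and 182 in those labelled sinusoidal. It was called in 5 of 6 comparisons, more than any other member. CD200-high lay below all others, arterial came next, and type H overlapped with the libraries labelled sinusoidal. CD200-high was 4.32-fold below type H (-2.11 ± 0.28, adjusted p = 0.000437), 4.58-fold below the libraries labelled sinusoidal (-2.19 ± 0.28, adjusted p = 0.000148) and 2.13-fold below arterial (-1.09 ± 0.28, adjusted p = 0.0257).

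Under the endothelial scaling the difference of CD200-high from type H was -1.02 (adjusted p = 0.169). Slc16a1 was 2.03-fold higher in type H than in arterial (1.02 ± 0.28, adjusted p = 0.0228), which the endothelial scaling turned to -1.16, and lower in arterial than in the libraries labelled sinusoidal (-1.11 ± 0.28, adjusted p = 0.0269). The call against arterial was lost for CD200-high without CD200-high replicate 3 or arterial replicate 1 (0.061 to 0.0995) and for type H without type H replicates 1 or 3 or arterial replicates 2 or 3 (0.0697 to 0.0803). The call of arterial against the libraries labelled sinusoidal was lost without arterial replicates 2 or 3 or any library labelled sinusoidal (0.0502 to 0.106).

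Slc16a3, the lactate exporter MCT4, averaged 13.8 ± 3.67 CPM in CD200-high libraries, 11.7 ± 4.91 in type H, 60.8 ± 23.4 in arterial libraries and 21.8 ± 8.9 in those labelled sinusoidal. Levels in CD200-high were below those in arterial (-2.11 ± 0.47, adjusted p = 0.0137, but 0.0652 without arterial replicate 3), as were those in type H (-2.41 ± 0.47, adjusted p = 0.00402). Per kilobase, Slc16a3 made up 15.9 to 36.2% of both carriers in CD200-high, 2.55 to 8.87% in type H, 26.3 to 51.1% in arterial libraries and 6.38 to 14.8% in those labelled sinusoidal. Pdk1 and Pdk4, kinases that keep pyruvate out of the mitochondrial dehydrogenase, were called nowhere. Pdk1 averaged 48.6 ± 19.8, 84.4 ± 26.2, 65.9 ± 16.5 and 71.3 ± 6.6 CPM in CD200-high, type H, arterial and labelled sinusoidal libraries. Pdk4 had 13.4, 80.5 and 17.4 CPM in CD200-high and was listed at 0 in arterial replicate 2.

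**Figure D4:**
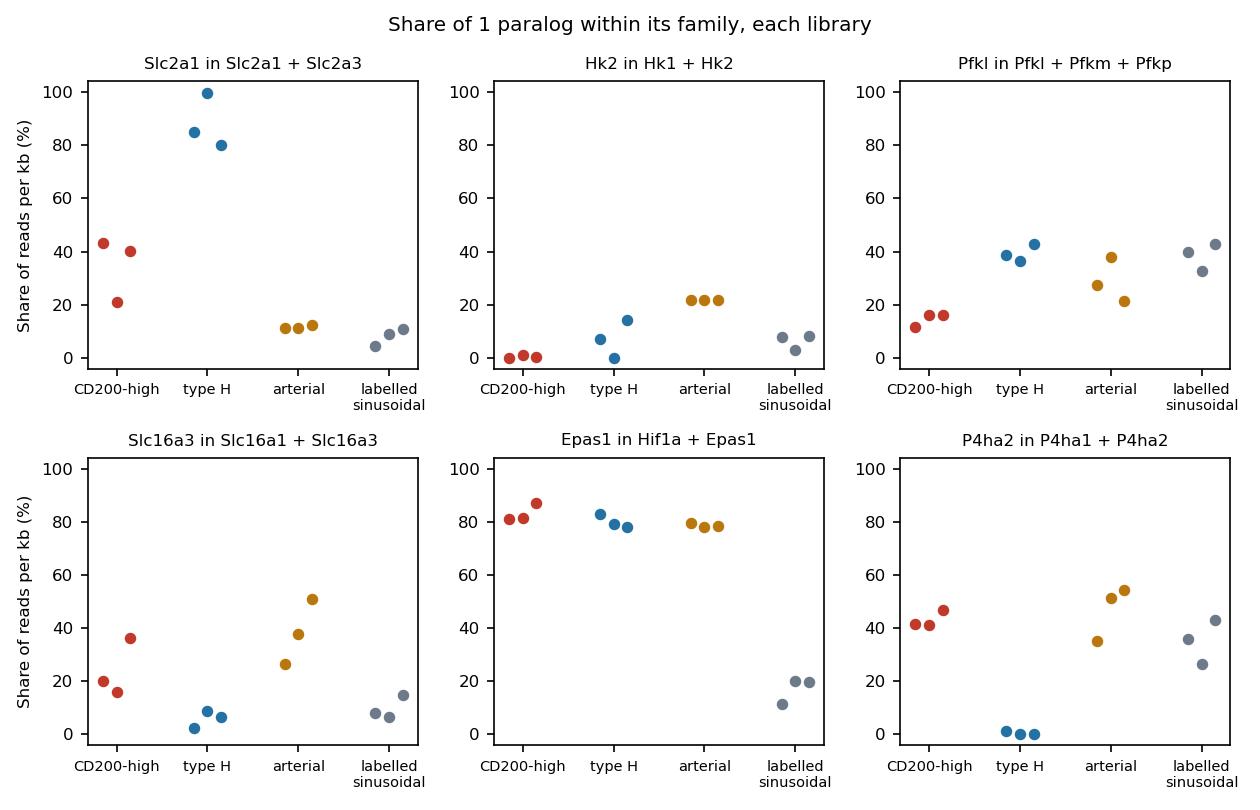
Share of 1 gene in the summed reads per kilobase of those genes of its family that are members (percent). Each library of CD200-high, type H, arterial and labelled sinusoidal is shown. Slc2a1 takes 80% or more in type H and at most 43.3% elsewhere, Epas1 at most 20% in the libraries labelled sinusoidal and 78.1% or more elsewhere, and P4ha2 at most 1.21% in type H.

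Of the HIF alpha genes, Hif1a was called higher in type H than in each other population, on the deposited scaling, and Epas1 was called higher than in 2 of the 3. Hif1a, which encodes the broadly expressed alpha subunit, had 73.8, 101 and 94 CPM in CD200-high, 157, 150 and 246 in type H, 62.3, 87.8 and 95.6 in arterial libraries, and 67.6, 52.2 and 57.9 in those labelled sinusoidal. Each type H library lay above the other 9, and CD200-high overlapped with arterial. CD200-high was 2.02-fold below type H (-1.02 ± 0.25, adjusted p = 0.0182). Type H was 2.23-fold above arterial (1.16 ± 0.25, adjusted p = 0.0063) and 3.05-fold above the libraries labelled sinusoidal (1.61 ± 0.25, adjusted p = 0.000441).

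The Hif1a call of CD200-high against type H was lost without CD200-high replicate 1 or type H replicate 3 (adjusted p 0.0618 to 0.0725). Under the endothelial scaling the 3 Hif1a differences were 0.07 (adjusted p = 0.911), -1.02 (0.0375) and -4.18 (2.54e-07) in the order given. The first was therefore lost, and the others were called in the opposite direction. HIF alpha proteins are set mainly by their stability, which RNA does not measure.

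Epas1, which encodes the alpha subunit prominent in endothelium, had 319, 449 and 641 CPM in CD200-high, 773, 577 and 893 in type H, 248, 317 and 356 in arterial libraries, and 8.97, 13.2 and 14.4 in those labelled sinusoidal. The last lay far below the other 9, where CD200-high overlapped with both neighbours. The difference from the libraries labelled sinusoidal was 5.24 ± 0.28 in CD200-high (adjusted p = 2.53e-07), 5.94 ± 0.28 in type H (adjusted p = 6.26e-08) and 4.66 ± 0.28 in arterial (adjusted p = 1.44e-06), or 37.7-fold, 61.5-fold and 25.3-fold. Type H exceeded arterial by 1.28 ± 0.28 (adjusted p = 0.00712), which turned to -0.90 under the endothelial scaling. The difference of CD200-high from type H, -0.71 ± 0.28, had an adjusted p of 0.126, and of 0.0487 with the mouse number as a block.

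Epas1 was low in the libraries labelled sinusoidal together with the endothelial markers. Scaled to the pan-endothelial median, it differed from the libraries labelled sinusoidal by 0.53 in CD200-high (adjusted p = 0.138), 0.15 in type H (adjusted p = 0.66) and 1.05 in arterial libraries (adjusted p = 0.00969). The genes whose log2 CPM followed it most closely over the 12 libraries were Fabp4 (Pearson r = 0.996), Gpihbp1 (0.993) and Egfl7 (0.992), and Fabp4 averaged 11.44, 12.45, 10.34 and 4.82 log2 CPM in CD200-high, type H, arterial and labelled sinusoidal libraries. The libraries fall into populations, and likeness within populations was not computed. Of the 2 alpha genes per kilobase, Epas1 took 81 to 87.1% in CD200-high, 78.2 to 82.9% in type H, 78.1 to 79.7% in arterial libraries and 11.6 to 20% in those labelled sinusoidal.

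**Figure D5:**
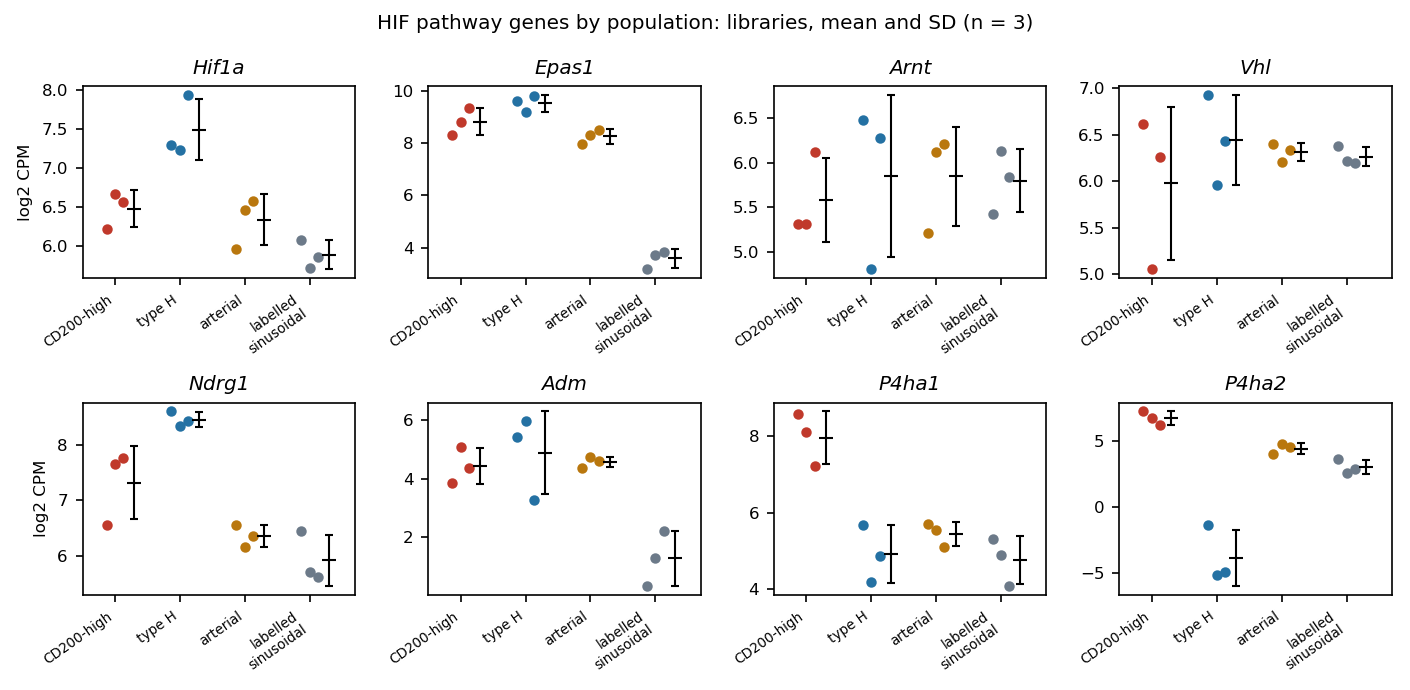
Deposited log2 CPM of 8 members of the HIF pathway in each library (points), with the mean and SD of 3 libraries beside them, for CD200-high, type H, arterial and labelled sinusoidal libraries. Epas1 and Adm are lowest in the libraries labelled sinusoidal, Hif1a and Ndrg1 are highest in type H on the deposited scaling, and P4ha2 has 0 reads in 2 type H libraries.

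Arnt, the shared partner, and Vhl, the ligase subunit that targets HIF alpha, were called in no comparison. Arnt had 39.6, 39.7 and 69.4 CPM in CD200-high, 88.9, 28 and 76.9 in type H, 37.1, 69.4 and 73.8 in arterial libraries, and 43.2, 70.1 and 57.4 in those labelled sinusoidal. All 4 populations overlapped, and the 95% intervals of the 6 differences ran from -1.25 at the lowest to 1.02 at the highest. Vhl had 98.1, 33 and 76.3 CPM in CD200-high, 122, 62.1 and 86.4 in type H, 84.5, 74.1 and 80.7 in arterial libraries, and 83.2, 74.7 and 73.2 in those labelled sinusoidal. Its intervals ran from -1.26 to 0.97.

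Egln1, the main oxygen sensor, had 6.47, 26.6 and 23.8 CPM in CD200-high, 21.4, 14.8 and 8.34 in type H, 10.7, 22.3 and 19.3 in arterial libraries, and 11.5, 7.09 and 10.6 in those labelled sinusoidal. Egln3, an oxygen sensor that HIF itself induces, had 0, 0 and 2.51 CPM in CD200-high, 7.14, 0 and 3.04 in type H, 9.11, 0 and 1.49 in arterial libraries, and 6.07, 5.47 and 6.48 in those labelled sinusoidal. Neither was called in any comparison, and Egln3 was listed at 0 in 4 of the 9 libraries outside those labelled sinusoidal. At this depth a count of 0 allows up to 0.121 to 0.443 CPM, set at 3 reads per library and covering counting error only.

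Among the HIF targets, Ndrg1, a stress-induced gene of differentiation, had 94.1, 201 and 217 CPM in CD200-high, 390, 323 and 345 in type H, 93.8, 71.7 and 81.7 in arterial libraries, and 87.6, 52.1 and 48.7 in those labelled sinusoidal. The type H libraries lay above all others and CD200-high above the remaining 6. Type H was 4.29-fold above arterial (2.10 ± 0.31, adjusted p = 0.000736) and 5.81-fold above the libraries labelled sinusoidal (2.54 ± 0.31, adjusted p = 9.72e-05). CD200-high was above the libraries labelled sinusoidal by 1.40 ± 0.31 (adjusted p = 0.00605). The endothelial scaling turned these 3 to -0.08 (adjusted p = 0.875, not called), -3.25 and -3.30.

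CD200-high was lower in Ndrg1 than type H (-1.14 ± 0.31, adjusted p = 0.034), but the adjusted p was 0.943 under the endothelial scaling, 0.0593 with the mouse number as a block and 0.058 to 0.1 without CD200-high replicate 1 or any type H library. Its difference of 0.97 ± 0.31 from arterial did not pass (adjusted p = 0.066). Type H also held the largest pan-endothelial sum, as given above, and the largest mural sum. The 11 mural markers summed to 0.0387 to 0.0506% of reads in CD200-high, 0.262 to 0.3% in type H, 0.0201 to 0.0213% in arterial libraries and 0.00454 to 0.00735% in those labelled sinusoidal, where Myh11 was at 0. Single mural genes went both ways, since against arterial libraries 2 of the 11 rose in type H (Kcnj8 and Abcc9) and 4 fell (Cspg4, Acta2, Rgs5 and Des), with a median difference of -1.59. The part of such cells in the type H differences was not tested.

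Adm, adrenomedullin, a vasodilator peptide, had 14.3, 33.9 and 20.5 CPM in CD200-high, 42.5, 62.6 and 9.7 in type H, 20.7, 26.5 and 24 in arterial libraries, and 1.23, 2.39 and 4.63 in those labelled sinusoidal. The last lay below all others, which overlapped. Against them Adm was higher by 3.16 ± 0.71 in CD200-high (adjusted p = 0.00617), 3.62 ± 0.71 in type H (adjusted p = 0.00243) and 3.29 ± 0.71 in arterial (adjusted p = 0.0115). The type H difference was 4.42 without type H replicate 3. With voom weights the adjusted p was 0.0736 in CD200-high and 0.102 in arterial, and the endothelial scaling turned the 3 differences to -1.54, -2.17 and -0.32.

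The collagen prolyl 4-hydroxylases were called in 3 comparisons for P4ha1 and 4 for P4ha2. P4ha1, the alpha subunit found in most cells that make collagen, had 383, 277 and 149 CPM in CD200-high, 51.5, 18 and 29.5 in type H, 52.4, 46.4 and 34.4 in arterial libraries, and 39.9, 29.8 and 17 in those labelled sinusoidal. Every CD200-high library lay above the other 9, which overlapped. CD200-high was 5.74-fold above arterial (2.52 ± 0.46, adjusted p = 0.00441), 8.32-fold above type H (3.06 ± 0.46, adjusted p = 0.000982) and 9.22-fold above the libraries labelled sinusoidal (3.2 ± 0.46, adjusted p = 0.000312). The endothelial scaling took the first to 1.43 (adjusted p = 0.12) and turned the last to -1.50.

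P4ha2, the related alpha subunit, had 155, 110 and 74.7 CPM in CD200-high, 0.36, 0 and 0 in type H, 16.2, 27.8 and 23.3 in arterial libraries, and 12.7, 6.11 and 7.31 in those labelled sinusoidal. The populations did not overlap at all, and the type H libraries held 7, 0 and 0 reads. CD200-high exceeded type H by 10.59 ± 0.94 on the log2 scale (adjusted p = 2.77e-05), and 11.82 and 9.92 without type H replicates 1 and 2, a size that depends on the 0.5 read added. Type H was lower than arterial (-8.29 ± 0.94, adjusted p = 0.000144) and than the libraries labelled sinusoidal (-6.89 ± 0.94, adjusted p = 0.000198). Without type H replicate 1 these were -9.52 and -8.11, and without replicate 2 they were -7.62 and -6.22.

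CD200-high also exceeded the libraries labelled sinusoidal in P4ha2 by 3.71 ± 0.94 (adjusted p = 0.0122), which turned to -1 under the endothelial scaling. Its difference of 2.31 ± 0.94 from arterial did not pass (adjusted p = 0.137), although the libraries did not overlap. The SE comes from all 4 populations, type H among them. P4ha2 was called in this comparison with voom weights, with an added 1 CPM, with only the 2 populations compared and without type H replicate 1. Of both subunits per kilobase, P4ha2 took 41.1 to 46.9% in CD200-high, 0 to 1.21% in type H, 35.2 to 54.4% in arterial libraries and 26.5 to 43.1% in those labelled sinusoidal. The stromal and bone markers given above were likewise largest in CD200-high and smallest in type H. Their part in the levels of P4ha1 and P4ha2 was not tested.

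The remaining HIF targets were called in no comparison. Bnip3l, a mitophagy receptor, varied little, at 254 ± 32 CPM in CD200-high libraries, 319 ± 19.2 in type H, 266 ± 14 in arterial libraries and 269 ± 22.8 in those labelled sinusoidal. Bnip3, its relative, averaged 61.2 ± 37.1, 45.6 ± 13.8, 57.8 ± 16.1 and 51.8 ± 10.6 CPM in the same order. Ddit4, an inhibitor of growth signalling, averaged 12.6 ± 8.13, 14.4 ± 8.98, 6.7 ± 2.01 and 4.96 ± 2.85 CPM. Ankrd37 stayed at or under 13 CPM in every library, and Car9, a surface carbonic anhydrase, at or under 6.49 CPM. In all, 15 members were called in none of the 6 comparisons, and the same share of all genes was not computed.

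Counting a member as set apart only where it was called against each of the other 3 populations, CD200-high was highest in 1 member (P4ha1, beside 1.57% of all genes) and lowest in 2 (Gapdh and Slc16a1, beside 1.11%). Type H was highest in 4 (Hif1a, Ndrg1, Pfkp and Slc2a1, beside 2.89%) and lowest in 1 (P4ha2, beside 2.22%). Arterial was highest in 1 (Pgam1, beside 1%) and lowest in 0 (beside 0.0819%), and the libraries labelled sinusoidal were highest in 0 (beside 1.29%) and lowest in 2 (Adm and Epas1, beside 4.86%). Without the libraries labelled sinusoidal, P4ha1 was highest (beside 1.5% of all genes) and Gapdh lowest (beside 0.96%) in CD200-high. In type H, 5 members were then highest (Hif1a, Ndrg1, Pfkl, Slc16a1 and Slc2a1, beside 3.17%) and P4ha2 was lowest (beside 3.04%), and in arterial Eno1 and Slc16a3 were highest (beside 3.48%) and 0 lowest (beside 2.26%). Under the endothelial scaling the 4 genes highest in type H each lost their rise over arterial. Hif1a was then called lower (-1.02, adjusted p = 0.0375). Pfkp (-0.87, adjusted p = 0.0786), Slc2a1 (-0.51, 0.304) and Ndrg1 (-0.08, 0.875) were not called.

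Other genes of the same pathways were taken from 2 fixed lists. Of 39 tested genes of glucose metabolism outside the members, 1 rose and 6 fell in CD200-high against arterial. Among all genes 4.75% were higher and 8.15% lower there. In type H against arterial 13 fell, where 12.7% of all genes were lower, and rises are not counted here. The fallers included enzymes of the pentose phosphate pathway, which makes NADPH. G6pdx, its first enzyme, averaged 5.13 log2 CPM in CD200-high libraries, 5.67 in type H, 7.72 in arterial libraries and 6.06 in those labelled sinusoidal. CD200-high was lower than arterial (-2.59 ± 0.25, adjusted p = 0.000197), as was type H (-2.05 ± 0.25, adjusted p = 0.000205). Taldo1, transaldolase of the same pathway, was lower than arterial in CD200-high (-1.21 ± 0.16, adjusted p = 0.000881) and in type H (-1.36 ± 0.16, adjusted p = 0.000179). Against type H, genes of this list went both ways in CD200-high. Slc2a10, of the same gene family as Slc2a1, was higher (3.27 ± 0.67, adjusted p = 0.00748), and Pgm1 was lower (-2.25 ± 0.5, adjusted p = 0.012). Under the endothelial scaling these were 4.36 (adjusted p = 0.00132) and -1.16 (adjusted p = 0.191, not called).

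Bsg, the chaperone of both lactate carriers, averaged 8.73, 8.47, 8.26 and 7.48 log2 CPM in CD200-high, type H, arterial and labelled sinusoidal libraries. It was higher in CD200-high than in the last by 1.25 ± 0.15 (adjusted p = 7.61e-05), which turned to -3.46 under the endothelial scaling.

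Of 44 tested hypoxia response genes outside the members, 6 rose and 4 fell in CD200-high against arterial and again 6 and 4 against type H, and 11 rose and 3 fell against the libraries labelled sinusoidal. The shares called were 22.7%, 22.7% and 31.8%, beside 12.9%, 13% and 28.7% of all genes, so that the last was near the background. Those that fell against arterial include Hmox1 (-2.80 ± 0.45, adjusted p = 0.00227) and Car2 (-2.40 ± 0.31, adjusted p = 0.000738). Both also fell against type H, Hmox1 by -1.71 ± 0.45 (adjusted p = 0.0276) and Car2 by -1.09 ± 0.31 (adjusted p = 0.0366). The endothelial scaling ended these calls against type H (-0.63, adjusted p = 0.325, and -0.01, adjusted p = 0.991). Those that rose include enzymes of collagen processing. Lox, which crosslinks collagen, averaged 10.55 log2 CPM in CD200-high libraries, 3.96 in type H, 8 in arterial libraries and 6.40 in those labelled sinusoidal, and CD200-high exceeded arterial by 2.55 ± 0.37 (adjusted p = 0.00139) and type H by 6.59 ± 0.37 (adjusted p = 1.31e-06). Under the endothelial scaling the Lox difference from arterial was 1.46 (adjusted p = 0.0517). Plod2, a collagen lysyl hydroxylase, averaged 8.29, 2.22, 4.97 and 4.35 log2 CPM in the same order. CD200-high exceeded arterial by 3.32 ± 0.36 (adjusted p = 0.000348) and type H by 6.07 ± 0.36 (adjusted p = 1.88e-06). The stromal and bone markers given above were also largest in CD200-high, and their part in the levels of Lox and Plod2 was not tested.

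Plod1, the related lysyl hydroxylase, averaged 8.07 log2 CPM in CD200-high libraries, 8.76 in type H, 6.29 in arterial libraries and 3.7 in those labelled sinusoidal, so that CD200-high was above arterial by 1.78 ± 0.18 (adjusted p = 0.000228) but below type H (-0.69 ± 0.18, adjusted p = 0.0252). Under the endothelial scaling these were 0.69 (adjusted p = 0.184) and 0.40, so the difference from type H turned. Angptl4, a secreted inhibitor of lipoprotein lipase, averaged 6.39, 9.31, 6.73 and 3.84 log2 CPM in the same order. Type H exceeded arterial by 2.58 ± 0.41 (adjusted p = 0.00115), but by 0.40 under the endothelial scaling (adjusted p = 0.511), and CD200-high was lower than type H (-2.93 ± 0.41, adjusted p = 0.000662). Mif, a cytokine that HIF induces, was lower than in the libraries labelled sinusoidal in CD200-high (-1.56 ± 0.21, adjusted p = 0.000215) and in type H (-1.51 ± 0.21, adjusted p = 0.000239).

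Ldha was the other gene whose neighbours in pattern were listed. Tex30 (Pearson r = 0.977), Stk4 (0.976) and Cd79a (0.969) followed it most closely over the 12 libraries. Cd79a, a B cell receptor component, averaged 5.57, 3.55, 8.19 and 10.04 log2 CPM in CD200-high, type H, arterial and labelled sinusoidal libraries. As for Epas1, the libraries fall into populations, and no test was made.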

How the data were processed

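Libraries were made from sorted cells with the Clontech Ultra Low v4 and NexteraXT kits and sequenced as 150-base reads, per the labels' protocols. Trimmomatic, STAR, SAMtools, deepTools, featureCounts and R 4.3 are named in the submitters' processing notes, without parameters. The genome build named there is a human one although the cells are from mice, so no coordinates were taken from the files. The use of strand in counting is not given in the sources used here.

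The deposited values are log2 CPM per gene in each library, made by the authors with 0.5 read added and with effective library sizes, as the values themselves show: whole reads came back within 0.01 for 100% of values. The plan had allowed for adding 1 to values that were not on a log scale, which was not needed. A gene was tested if 3 or more libraries reached 0.63 CPM, which is 10 reads at the average effective size (15.9 M), and 276 genes did not qualify. limma 3.58.1 in R 4.3.3 was run with a trend on the deposited log2 values, over all 4 populations, with adjusted p-values (Benjamini-Hochberg) over all 17086 genes of each comparison and a threshold of 0.05. The test was also run on simulated counts, whose outcome is not given here. Those counts were not made to lose genes from single libraries, so that run does not cover such genes. Printed CPM and reads were taken back from the log2 values, and ± in a difference is its SE.

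Levels per kilobase used the union of exons in GENCODE M21 basic. A floor of 3 reads corresponds to 0.121 to 0.443 CPM in a library.

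Libraries carry mouse numbers in the labels. The labels do not say whether a number marks the same mouse in every population, so the block is not known to pair animals. Deviations of same-numbered libraries correlated at -0.042 to 0.069 (median 0.024, 0 of 18 pairs over 0.1, 12754 genes with a mean of at least 5 CPM), and the fit with this block was an alternative. Replicates differed beyond sampling noise, with a chi-square per degree of freedom of 52.8 to 125.

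Alternatives were the filter, the added value, quantile, equal-total and endothelial scaling, voom weights, no trend, fewer populations, the block, and each library left out. Values of each library are given for members called in at least 3 comparisons, for the largest called rise and fall of each comparison, and for the HIF subunits and oxygen sensors. From the lists of other genes, those with the 2 smallest adjusted p-values in a direction could be named, and for Epas1 and Ldha the 3 genes with the highest correlation. The members and lists were chosen with earlier results of these data known. A gene of the list of other glucose metabolism genes is not reported here.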

Additional observations from a re-analysis of the deposited data

How the results depend on the processing

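Of 68 called differences of members, 17 kept direction and call under each of the 23 alternatives, and 37 under each but the endothelial scaling. Neither filter nor an added 1 CPM ended any. Calls ended by other settings numbered 4 with quantile scaling, 1 with equal totals, 5 with voom weights, 21 without the trend and 12 with only the 2 populations compared. Depth limits the genes near 0, Hk2, Egln3, Car9 and Aldoc among them.

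The endothelial scaling turned 24. In CD200-high against type H these were Gapdh (0.24), Hif1a (0.07) and Pkm (0.23), and against the libraries labelled sinusoidal Adm (-1.54), Ldhb (-2.54), Ndrg1 (-3.30), P4ha1 (-1.50) and P4ha2 (-1). In type H against arterial they were Epas1 (-0.90), Hif1a (-1.02), Ndrg1 (-0.08), Pfkl (-0.34), Pfkp (-0.87), Slc16a1 (-1.16) and Slc2a1 (-0.51). In type H against the libraries labelled sinusoidal they were Adm (-2.17), Hif1a (-4.18), Ndrg1 (-3.25), Pfkp (-4.61), Pkm (-5.11) and Slc2a1 (-3.54), and in arterial against those libraries Adm (-0.32), Ldhb (-1.24) and Pgam1 (-2.97). Some of these were not called after the turn. They were all listed against type H, Adm and P4ha2 in CD200-high against the libraries labelled sinusoidal, and Adm and Ldhb in arterial against those libraries. In type H against arterial they were Ndrg1, Pfkl, Pfkp, Slc16a1 and Slc2a1. All follow from the shift of the medians given with the scaling.

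Members called in CD200-high against arterial numbered 20 under that scaling, 5 without the trend, 6 without the libraries labelled sinusoidal and 5 to 12 with 1 library left out. In CD200-high against type H they numbered 6 without the trend and 7 to 12 with 1 library left out. Against the libraries labelled sinusoidal they numbered 35 under that scaling for CD200-high (11 to 17 with 1 library left out), 37 for type H (11 to 15) and 31 for arterial (2 to 5, and 3 without the trend). In type H against arterial they numbered 29 and 12 to 14. The cause of the other changes was not tested. No share of all genes under the same setting is set beside these counts or those with the block below. They show only how the calls of members depend on the setting.

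With the mouse number as a replicate block, 10 members were called in CD200-high against arterial, 9 against type H and 14 against the libraries labelled sinusoidal, 15 in type H against arterial, 14 in type H and 6 in arterial against the libraries labelled sinusoidal. Beyond the 6 calls given with their genes, the block changed no call of a member.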

Other observations

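Some genes had 0 reads in 1 library while both other libraries of its population held at least 50 reads each. This occurred for 326 genes in type H replicate 2, Hk2 and Pfkfb4 among them. It occurred for 156, 136 and 150 genes in CD200-high replicates 1, 2 and 3, with no member, and for 86 genes in arterial replicate 2, Pdk4 among them. The other 7 libraries had 28 to 85 such genes and no member.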
